A study of Mus musculus with 4 samples.

Results

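The genes described here are 9 leukocyte integrin and selectin genes, chosen by symbol as a family of adhesion molecules: Itgam, Itgal, Itgb2, Itgb2l, Itga4, Itgb1, Itgb7, Selplg and Icam1. They fill 10 of the 53465 lines of the gene table, because Itgam names 2 of them. The study isolated MDSCs, immature cells of the myeloid lineage that expand in hosts with tumors, from the spleens of male BALB/c mice carrying 4T1 tumors, a transplantable mammary carcinoma. Cells were held by magnetic beads against Gr-1 (Ly-6G/Ly-6C) and not by any of the genes described here. They were kept for 6 h in control medium (control group, 2 libraries) or with EGCG, the main catechin of green tea, at 5 μg/mL (EGCG treatment group, 2 libraries). All 4 libraries thus come from wild-type, tumor-bearing animals, which the labels place at day 21 after tumor cell injection and the study's methods at an earlier day. The sources used here do not tell whether the libraries of a group stand for separate mice or separate cultures, so the p-values measure only the spread between these libraries.

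Integrins are dimers of an α and a β chain that hold leukocytes to vessel walls, matrix and other cells. The β2 chain (Itgb2, CD18) pairs with αL (Itgal, CD11a) to form LFA-1 and with αM (Itgam, CD11b) to form Mac-1, the integrin by which MDSCs are usually gated. The α4 chain (Itga4, CD49d) pairs with β1 (Itgb1, CD29) to form VLA-4 or with β7 (Itgb7), which binds the addressin of gut vessels. Selplg encodes PSGL-1, the main ligand through which leukocytes roll on P-selectin, and Icam1 encodes the ligand of LFA-1 and Mac-1. Itgb2l encodes a β chain close to β2 that is known from maturing neutrophils.

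The libraries held from 17767318 to 18390385 counts. Libraries of a group were further apart than sampling noise allows (mean chi-square per gene of 6.25 between the control libraries and 6.07 between the EGCG libraries). Control replicate 1 stood farther from the EGCG libraries (14.4 and 11.2) than control replicate 2 did (6.90 and 6.14). The sorted cells carried the markers of neutrophil-like cells: the summed level of 8 neutrophil genes ran from 54450 to 73337 CPM (counts scaled to the size of each library with TMM factors), against 929 to 1016 CPM for 6 monocyte genes. Without S100a8 and S100a9, the other 6 neutrophil genes summed to 17534 to 18938 CPM. Sums over unlike gene lists do not measure shares of cells. Markers of other splenic cells were present below the neutrophil level, at 349 to 397 CPM for 5 B cell genes, 753 to 1061 CPM for 4 eosinophil genes, 173 to 199 CPM for 5 basophil or mast cell genes and 90 to 107 CPM for 6 T cell genes, of which Cd3d held 75.2 to 90.2 CPM. Lymphocytes, eosinophils and basophils also carry LFA-1 and α4 integrins, and their part in the levels below was not tested. In such bulk samples, fewer cells of a type and less RNA per cell cannot be told apart.

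Reads of related β chains can be told apart only where their sequences differ. Over the aligned coding bases of GENCODE M21 transcripts, Itgb2 was identical to Itgb2l at 73.3%, to Itgb7 at 60.6% and to Itgb1 at 58.9%. The longest run shared by Itgb2 and Itgb2l was 25 bases, and 0 words of 31 bases occurred in both coding sequences.

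For 6 of the 9 genes RefSeq (GRCm38.p6) gave a promoter, of which 3 are shown, those of the myeloid chains Itgam and Itgb2l and of Icam1, a known target of NF-κB, whose phosphorylation the study followed on protein level. The letters GAGGAA, the core bound by the myeloid factor PU.1, and GGAAATTCC, an NF-κB motif, were searched on both strands of the 250 bases before each start and are in capitals. GAGGAA or its reverse complement TTCCTC was found in 3 of the 6 genes (Itgam, Itgb1 and Itgb2l) and in 23.3% of 32851 promoters. GGAAATTCC was found in Icam1 only among the 6, at 153 bases before the start, and in 0.286% of all promoters. A match describes the letters and does not show binding in these cells.

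Itgam, chr7:128062390-128062639, plus strand: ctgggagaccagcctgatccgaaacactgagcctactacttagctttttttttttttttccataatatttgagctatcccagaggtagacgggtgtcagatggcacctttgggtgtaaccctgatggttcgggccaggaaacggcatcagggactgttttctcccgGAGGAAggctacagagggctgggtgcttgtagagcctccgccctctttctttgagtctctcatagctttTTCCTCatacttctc
Itgb2l, chr16:96443615-96443864, minus strand: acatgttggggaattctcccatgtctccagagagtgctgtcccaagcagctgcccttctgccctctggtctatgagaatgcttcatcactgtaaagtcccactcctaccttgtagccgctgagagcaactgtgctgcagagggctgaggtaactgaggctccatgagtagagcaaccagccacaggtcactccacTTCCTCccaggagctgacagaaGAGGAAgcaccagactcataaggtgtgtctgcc
Icam1, chr9:21015690-21015939, plus strand: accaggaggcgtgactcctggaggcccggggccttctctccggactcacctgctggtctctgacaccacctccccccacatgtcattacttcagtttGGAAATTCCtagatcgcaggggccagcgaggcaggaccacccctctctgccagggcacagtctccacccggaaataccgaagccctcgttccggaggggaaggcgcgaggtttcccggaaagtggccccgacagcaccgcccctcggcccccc

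The first question was how strongly the chains were expressed. On the scale of TPM, which divides counts by exonic length, Itgb2 (chr10:77530252-77565708) stood above the other genes, from 1394 to 1643 TPM over the 4 libraries. It made up 87.1% to 88.1% of the reads per base of the 4 β chains, against 5.32% to 5.75% for Itgb1, 3.68% to 4.83% for Itgb2l and 2.40% to 2.51% for Itgb7. Itgam (chr7:128062640-128118491) followed at 333 to 346 TPM, Selplg (chr5:113818536-113832644) at 287 to 328 TPM and Itgal (chr7:127296260-127335138) at 215 to 266 TPM, with no overlap between neighbors in this order. Itgb1 (chr8:128685654-128733200, 84.8 to 102 TPM), Icam1 (chr9:21015985-21028817, 69.2 to 91.6 TPM) and Itgb2l (chr16:96422288-96443619, 62.6 to 90.8 TPM) overlapped each other. Itgb7 (chr15:102215995-102231944) lay at 38.9 to 45.1 TPM, and Itga4 (chr2:79255426-79333123) was lowest at 17.5 to 21.0 TPM. The order depends on the length that is used: by the length of the longest transcript, Selplg (mean of 572 TPM) stood above Itgam (365 TPM), and Icam1 (138 TPM) and Itgb2l (118 TPM) above Itgb1 (102 TPM). Divided only by the bases that no other gene covers, Itgam had a mean of 1085 TPM, above Selplg (310 TPM).

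**Figure D1:**
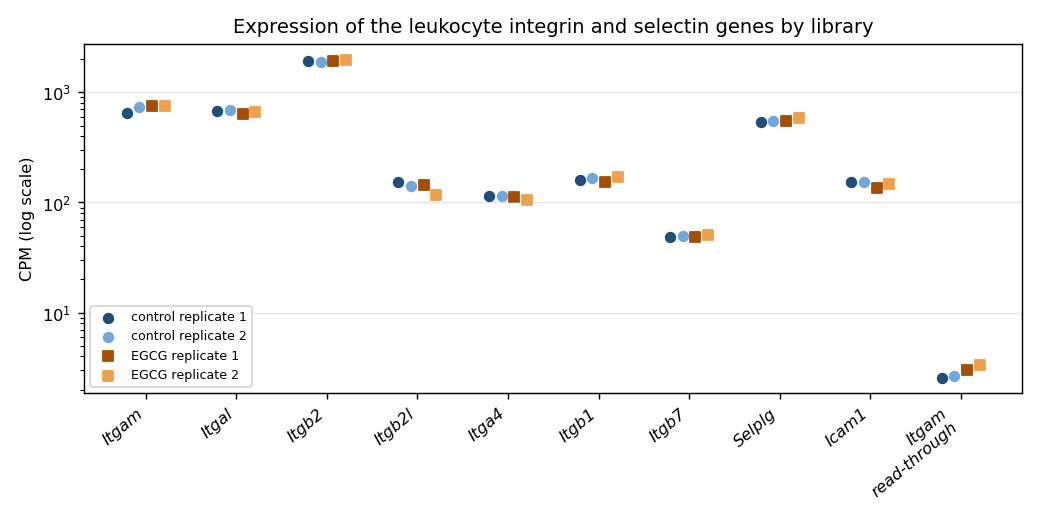
Expression of each gene in the 4 libraries, as CPM scaled by TMM on a log axis, with circles for control and squares for EGCG libraries. Itgb2 is highest, from 1889 to 1975 CPM. The low libraries are control replicate 1 for Itgam (646 CPM) and EGCG replicate 2 for Itgb2l (117 CPM).

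The level of Itgam depends on how shared exons were counted, which the sources used here do not give. A second line of the table with the symbol Itgam (ENSMUSG00000108596, chr7:128062683-128128160, named Gm49368 in GENCODE M21) is a read-through locus on the same strand that uses most of the exons of Itgam (ENSMUSG00000030786). Of the 5024 exonic bases of Itgam, 3450 are also exonic in that locus, and only 1574 bases (31.3%) belong to no other gene of the table. Of these, 1186 lie in the last of the 30 exon blocks and 244 in the block before it. By default featureCounts leaves out reads that fall on more than 1 gene. The read-through line itself had counts of 47 and 47 in the controls, and of 55 and 60 with EGCG. Itgam had counts of 11802 and 13142 in the controls, and of 13742 and 13382 with EGCG. Reads on the shared exons were thus hardly counted for both lines. Whether they were left out or given to Itgam alone is not stated. If the counts of Itgam came from its own bases alone, its level would be 1062 to 1104 TPM instead of 333 to 346 TPM. The other genes kept at least 88.3% of their exonic bases to themselves: Icam1 shares 511 bases with Gm47079 and Itga4 (92% own) shares 1124 bases with Cerkl, both on the opposite strand. Since the counting did not use strand, reads there cannot be told apart.

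**Figure D2:**
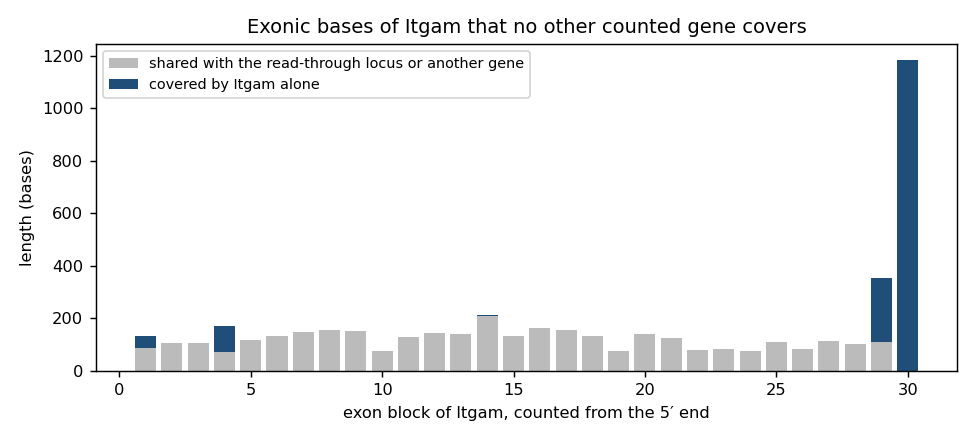
Length of each exon block of Itgam in bases, counted from the 5′ end of the gene, split into bases shared with the read-through locus or another gene (gray) and bases of Itgam alone (blue). The last block, with 1186 bases, holds most of the 1574 bases that belong to Itgam alone.

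The comparison of EGCG with control asked whether treatment for 6 h changed these transcripts. With the quasi-likelihood test of edgeR and p-values adjusted after Benjamini-Hochberg over 14682 tested genes, 0 of the 10 lines were lower and 0 were higher at an adjusted p under 0.05, where the test called 0.136% of all genes as lower and 0.0136% as higher. By edgeR 0 of 10 also had an unadjusted p under 0.05, which 7.02% of all tested genes had as lower and 5.22% as higher, and DESeq2 called 0. All 10 lines passed the filter on low counts, 5 had a log2 fold change below 0 and 5 above, and their median was 0.0048, against 0.0031 over all tested genes. The EGCG libraries lay wholly below the control libraries for 3 lines (Itgal, Itga4 and Icam1) and wholly above for 3 (Itgam, the read-through line and Selplg, for which EGCG replicate 1 and control replicate 2 differed by less than the digits given below). Over all tested genes, groups were separate in this way for 21.2% (EGCG below control) and 21.5% (EGCG above control).

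Among the β2 integrins, Itgb2 was at 1938 and 1889 CPM in the control libraries and at 1911 and 1975 CPM in the EGCG libraries. The groups overlapped, and the control mean of 1914 ± 34.4 CPM (SD, n = 2) stood against 1943 ± 45.2 CPM (SD, n = 2) with EGCG. The fit gave Itgb2 a log2 fold change of 0.02 (standard error 0.08), with a 95% interval from -0.15 to 0.19, that is from 0.904-fold to 1.14-fold, and edgeR gave an adjusted p of 0.944. Scaling by library size only turned it to -0.01.

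Itgam was at 646 and 735 CPM in the control libraries and at 758 and 749 CPM in the EGCG libraries. Control replicate 1 was the low library, whereas the other 3 lay within 735 to 758 CPM. The log2 fold change of Itgam was 0.13 (standard error 0.08, 95% interval from -0.05 to 0.30), with an adjusted p of 0.584 from edgeR. Leaving out control replicate 1 gave 0.04, and leaving out control replicate 2 gave 0.22. The summed level of the neutrophil markers was also lowest in control replicate 1, at 54450 CPM, against 65243 CPM in control replicate 2 and 65422 to 73337 CPM with EGCG, and 0 of 8 genes were called. S100a8 and S100a9 made up 67.8% to 74.3% of this sum. The other 6 genes summed to 17534 and 18787 CPM in the controls, against 18831 and 18938 CPM with EGCG. Ltf went the other way, with 3875 and 3841 CPM against 3716 and 3626 CPM. Their part in the value of Itgam was not tested. The read-through line was at 2.57 and 2.63 CPM in the control libraries and at 3.03 and 3.36 CPM in the EGCG libraries, with a log2 fold change of 0.30 and a wide interval from -0.22 to 0.81.

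Itgal had 675 and 693 CPM in the control libraries and 635 and 664 CPM in the EGCG libraries. Both EGCG libraries were lower, by an amount inside the error of the fit. The log2 fold change of Itgal was -0.08 (standard error 0.08, 95% interval from -0.24 to 0.09) with an adjusted p of 0.735 from edgeR, and -0.01 with the correction for gene length. Itgb2l, the β chain of maturing neutrophils, was at 152 and 141 CPM in the control libraries and at 145 and 117 CPM in the EGCG libraries. EGCG replicate 2 stood apart as the low library, and EGCG replicate 1 lay between the controls. With -0.16 (standard error 0.10, 95% interval from -0.37 to 0.04, adjusted p of 0.532 from edgeR), Itgb2l had the lowest log2 fold change of the 9 genes. This value rests on 1 library, since it was -0.01 without EGCG replicate 2 and -0.32 without EGCG replicate 1 (adjusted p of 0.137 from edgeR).

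Among the α4 integrins, Itga4 was at 114 and 115 CPM in the control libraries and at 112 and 105 CPM in the EGCG libraries. The control libraries agreed closely, and EGCG replicate 2 was lowest. The fit gave Itga4 a log2 fold change of -0.07 (standard error 0.08, 95% interval from -0.23 to 0.09, adjusted p of 0.774 from edgeR). Itga4 has the longest exonic sequence of the 9 genes (13978 bases, against a median of 3815 over the tested genes), and fold changes fell with length across genes in these libraries (Spearman correlation of -0.285 over 14655 genes, which are not independent replicates). With the length correction its value turned to 0.09. Itgb1 had 161 and 167 CPM in the control libraries and 155 and 170 CPM in the EGCG libraries, and its log2 fold change of -0.01 (95% interval from -0.17 to 0.16) changed sign with the length correction (0.01) and without control replicate 2 or EGCG replicate 1. Itgb7 varied little, at 48.3 and 49.4 CPM in the control libraries and at 48.4 and 50.6 CPM with EGCG. Its log2 fold change was 0.02 (95% interval from -0.16 to 0.20), or -0.02 when scaled by library size only. The raw counts of Itgb7 were 882 in both control libraries, against 877 and 903 with EGCG.

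For the rolling ligand Selplg, the control libraries had 542 and 551 CPM and the EGCG libraries 551 and 588 CPM. EGCG replicate 1 was level with control replicate 2, and EGCG replicate 2 was the high library. The log2 fold change of Selplg was 0.06 (standard error 0.08, 95% interval from -0.10 to 0.22) with an adjusted p of 0.806 from edgeR. It was 0.01 without EGCG replicate 2 and 0.11 without EGCG replicate 1. Icam1 was at 154 and 152 CPM in the control libraries and at 136 and 146 CPM in the EGCG libraries. Both EGCG libraries were below the controls, which differed little from each other. The log2 fold change of Icam1 was -0.12 (standard error 0.07, 95% interval from -0.28 to 0.04, adjusted p of 0.561 from edgeR), and it stayed below 0 under all 10 alternatives (from -0.16 to -0.09) and with each library left out (from -0.17 to -0.07), none of which called it. Among cells besides neutrophils that can carry LFA-1, α4 integrins and Icam1, marker sums were lower with EGCG for monocytes and eosinophils, at 929 to 930 CPM against 979 to 1016 CPM for the monocyte genes (3 of 6 lower in both EGCG libraries, with Csf1r and F13a1 at 65.2% to 71.8% of the sum, and overlapping groups for Ly6c2 and Ccr2) and at 753 to 892 CPM against 915 to 1061 CPM for the eosinophil genes (4 of 4 lower), with 0 genes called in either list. Over all tested genes, 21.2% had both EGCG libraries below the controls. The eosinophil sum was mostly Prg2, at 738 and 607 CPM with EGCG against 865 and 747 CPM. For Prg2 and for Ccr3 (13.7 and 11.7 CPM against 13.9 and 13.8 CPM), EGCG replicate 1 was close to control replicate 2. Lymphoid sums went the other way or overlapped, at 8.85 to 8.88 CPM against 8 and 8 CPM for 5 NK cell genes (of which only Gzma was higher in both EGCG libraries, and Ncr1 had 3 to 7 counts), 219 to 246 CPM against 193 to 210 CPM for 3 plasma cell genes (mostly Jchain, at 206 to 234 CPM against 177 to 196 CPM), 104 to 107 CPM against 90 to 104 CPM for the T cell genes and 362 to 397 CPM against 349 to 369 CPM for the B cell genes. The macrophage sum was lower with EGCG, at 256 to 269 CPM against 321 to 329 CPM (3 of 6 genes lower in both EGCG libraries). So was the endothelial sum, at 96.8 to 101 CPM against 118 to 129 CPM (4 of 5 genes lower, beside 21.2% of all tested genes), with 0 genes called in either list. The part of all these cell types in the values of Itgal, Itga4 and Icam1 was not tested.

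**Figure D3:**
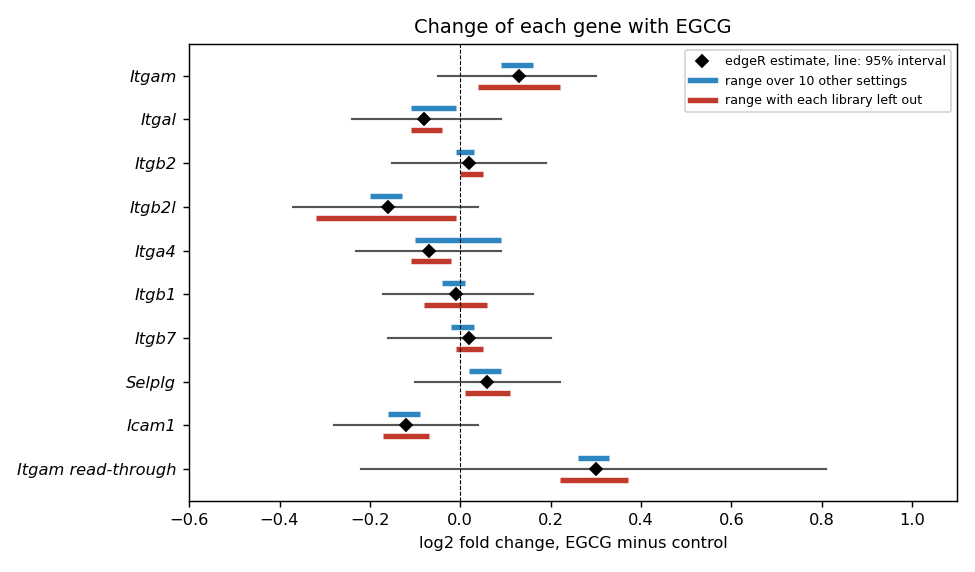
Log2 fold change of EGCG against control for each gene (diamond) with its 95% interval from edgeR (gray line), the range over 10 other settings (blue) and the range with each library left out (red). Every 95% interval includes 0, and the interval of Itgb2l is the widest among the 9 genes apart from the read-through line.

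Since α and β chains work in pairs, their balance within a library was compared as well, a measure that scaling does not move. Itgb2l to Itgb2 and Itgb7 to Itgb1 compare β chains with each other and are not ratios of partners. Per exonic base, Itgam had 0.203 and 0.236 times the reads of Itgb2 in the controls, and 0.241 and 0.230 times with EGCG. The log2 ratio differed by 0.11 between the groups (exact two-sided permutation p = 0.667, n = 2 per group). Itgal to Itgb2 was 0.162 and 0.170 in the controls, and with EGCG it was 0.154 and 0.156. This was the one ratio of 6 whose groups did not overlap, with a log2 difference of -0.10 and an exact permutation p of 0.33, the smallest that 2 against 2 libraries allow. Adding up Itgam, Itgal, Itgax and Itgad, the α chains that pair with β2, gave 0.406 to 0.445 reads per base for each of Itgb2. When only the bases of a single gene were counted as length, the same sum was 0.851 to 0.965, and the share of Itgam in it rose from 49.9% to 56.3% over the libraries to 76% to 80.3%.

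The ratio of Itga4 to Itgb1 was 0.206 and 0.201 in the controls, and 0.211 and 0.181 with EGCG. Itga4 to Itgb7 was 0.466 and 0.460 against 0.461 and 0.413, and Itgb7 to Itgb1 was 0.442 and 0.436 against 0.459 and 0.437. Itga4 was thus below both of its β partners in every library, and in both ratios EGCG replicate 2 was the lowest library. Itgb2l to Itgb2 was 0.0553 and 0.0528 in the controls, and 0.0536 and 0.0418 with EGCG. The exact two-sided permutation p of these 4 ratios ran from 0.667 to 1, and after Benjamini-Hochberg adjustment over the 6 ratios the adjusted exact p ran from 0.8 to 1. With a library left out, 3 of the 6 differences changed sign, Itgam to Itgb2 to -0.01 without control replicate 1, Itga4 to Itgb1 to 0.05 without EGCG replicate 2 and Itgb7 to Itgb1 to -0.01 without EGCG replicate 1. The ratios were not corrected for the trend with length. With that correction the log2 fold change was 0.09 for Itga4, above 0.01 for Itgb1 and 0.02 for Itgb7, which turns the direction of both Itga4 ratios, and it was -0.01 for Itgal beside 0.02 for Itgb2.

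**Figure D4:**
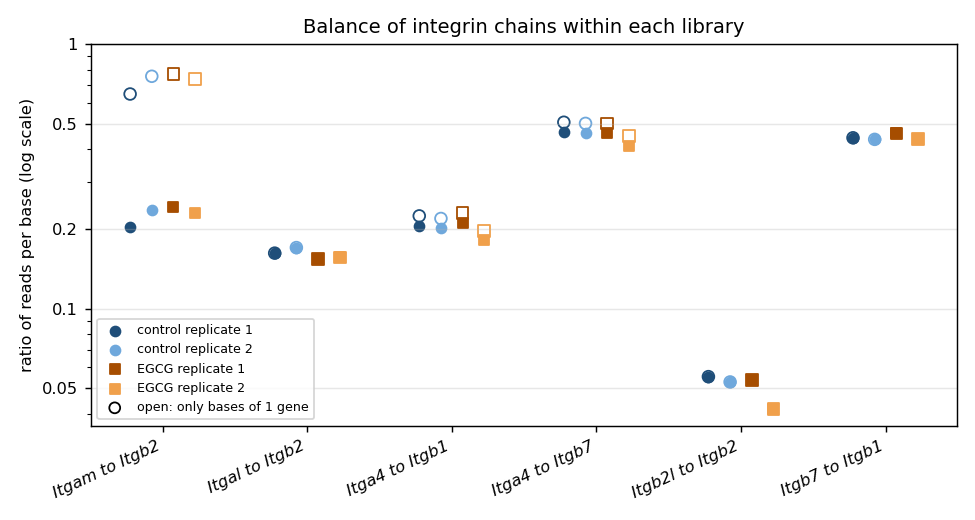
Ratio of reads per exonic base between integrin chains in each library, on a log axis, with circles for control and squares for EGCG. Open symbols divide the same counts by only the bases that no other gene covers. This moves Itgam to Itgb2 from a mean of 0.228 to 0.727 and Itga4 to Itgb7 from 0.450 to 0.489.

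The genes around the family were described from lists written by hand. Of the 14 tested integrin chains outside the family, 13 had a log2 fold change below 0 (92.9%, against 49.4% of all tested genes), with a median of -0.26. By edgeR 0 of 14 had an adjusted p under 0.05, 7 had an unadjusted p under 0.05, all lower (against 7.02% of all tested genes), and DESeq2 called 0. Itga1, a collagen receptor chain, was at 22.7 and 26.6 CPM in the control libraries and at 16.5 and 18.3 CPM with EGCG. The log2 fold change of Itga1 was -0.50 (standard error 0.12), and the adjusted p of 0.110 from edgeR ran from 0.0271 (library size only) to 0.650 over the 10 alternatives. Itga9 fitted at -0.53 (adjusted p of 0.240 from edgeR), and Itgb3, the β chain of platelet and αv integrins and the highest of the list, at -0.19 (adjusted p of 0.324 from edgeR) with 143 and 140 CPM against 124 and 124 CPM. The length correction left the median of this list at -0.23 and gave -0.31 for Itga1 (adjusted p of 0.385 from edgeR). Marker sums of cells that carry such chains lay lower in the EGCG libraries, at 96.8 to 101 CPM against 118 to 129 CPM for 5 endothelial genes (Pecam1 at 85.1% to 90.1% of the sum, Emcn at 0 to 0.276 CPM) and at 256 to 269 CPM against 321 to 329 CPM for 6 macrophage genes (Adgre1 at 61% to 70.9%). Their part in these values was not tested. The platelet list holds Itga2b and Itgb3 themselves, and its other 4 genes overlapped between the groups, with sums of 8.27 and 14.3 CPM in the controls against 9.27 and 11 CPM with EGCG.

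In the selectin arm, 0 of 9 tested selectins and ligands were called by edgeR or DESeq2. By edgeR 1 had an unadjusted p under 0.05, as lower (against 7.02% of all tested genes). This was Sele, the endothelial selectin, at 6.63 and 7.0 CPM in the control libraries and 5.02 and 5.09 CPM in the EGCG libraries (log2 fold change of -0.43, adjusted p of 0.355 from edgeR). The endothelial markers given above were lower as well (4 of 5 genes wholly below the controls, against 21.2% of all tested genes), and their part in Sele was not tested. Cd24a, the most abundant gene of the list and a P-selectin ligand, was at 1361 and 1536 CPM against 1744 and 1457 CPM, with overlapping groups and a log2 fold change from 0.01 (without EGCG replicate 1) to 0.27 (without EGCG replicate 2). Glg1, which encodes the E-selectin ligand ESL-1, fitted at -0.13 on the log2 scale with a 95% interval from -0.29 to 0.03. The value of Glg1 was -0.05 with the length correction, -0.06 without control replicate 1 and -0.19 without control replicate 2. Of 11 tested enzymes that build selectin ligands, 0 were called by either tool. Fut7, the fucosyltransferase that makes PSGL-1 a selectin ligand, was at 20.8 and 19.4 CPM in the control libraries and at 24.9 and 22.5 CPM in the EGCG libraries (log2 fold change of 0.24, unadjusted p of 0.0458 and adjusted p of 0.402 from edgeR). Gcnt1, which branches the glycans of PSGL-1, had a log2 fold change of -0.17 with overlapping groups, or -0.01 without EGCG replicate 2 and -0.35 without EGCG replicate 1. Among 7 tested surface ligands of integrins besides Icam1, 0 were called by edgeR or DESeq2. By edgeR 2 had an unadjusted p under 0.05, both lower (against 7.02% of all tested genes). Vcam1, the ligand of VLA-4, was at 56.6 and 52.1 CPM against 43.3 and 49.4 CPM (log2 fold change of -0.23, adjusted p of 0.349 from edgeR), and Cdh1, the ligand of αEβ7, had a log2 fold change of -0.26 (adjusted p of 0.403 from edgeR). The length correction gave -0.13 for Vcam1. Without EGCG replicate 1 the values were -0.14 for Vcam1 and -0.14 for Cdh1, and without EGCG replicate 2 they were -0.32 and -0.39. The part of the lower macrophage and endothelial marker sums in Vcam1 was not tested.

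Inside the cell, integrins are switched on by talin, kindlins and the GTPase Rap1. Of 15 tested activators 0 were called by edgeR or DESeq2, and the median log2 fold change was 0.03. By edgeR 2 had an unadjusted p under 0.05 as lower and 1 as higher, against 7.02% and 5.22% of all tested genes. Tln1, which encodes talin, was at 1604 and 1513 CPM in the control libraries and at 1290 and 1389 CPM in the EGCG libraries. Tln1 fitted at -0.22 on the log2 scale (standard error 0.08, adjusted p of 0.302 from edgeR). The length correction gave -0.10 for Tln1 (adjusted p of 0.682 from edgeR). Rap1b went the other way, with 648 and 717 CPM against 775 and 804 CPM and a log2 fold change of 0.21 (standard error 0.08, adjusted p of 0.320 from edgeR). For both genes the groups did not overlap. Of 9 inhibitors 0 were called by either tool and 0 had an unadjusted p under 0.05. Flna, whose product competes with talin for β tails, had a log2 fold change of -0.16. The value of Flna was -0.05 with the length correction, -0.08 without EGCG replicate 1 and -0.25 without EGCG replicate 2. Cytip, which restrains adhesion through cytohesin, had 0.14, or 0.09 without control replicate 1 and 0.19 without control replicate 2.

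Downstream, 0 of 13 signaling genes were called by edgeR, 1 had an unadjusted p under 0.05, as lower (against 7.02% of all tested genes), and DESeq2 called 1. In both it was Cbl, an E3 ubiquitin ligase, at 577 and 584 CPM in the control libraries and at 486 and 459 CPM in the EGCG libraries. Cbl fitted at -0.30 on the log2 scale (standard error 0.07). The adjusted p was 0.133 from edgeR and 0.0278 from DESeq2, in a range from 0.0278 to 0.593 over the 10 alternatives. The length correction gave -0.15 for Cbl (adjusted p of 0.507 from edgeR). Tyrobp, the adaptor DAP12 and the most abundant gene of this list, had a log2 fold change of 0.19 with control replicate 1 as the low library (1178 CPM, against 1408 to 1564 CPM in the other libraries), or 0.06 without it. Without control replicate 2 the value of Tyrobp was 0.34, and with the length correction it was 0.12. Btk, a kinase of the Tec family, had a log2 fold change of -0.14. Of 5 genes for sheddases, which release selectins and integrins from the surface, and their iRhom partners, 0 were called by either tool and 0 had an unadjusted p under 0.05. Their log2 fold changes ran from -0.34 (Rhbdf1, at 2.04 to 2.68 CPM) to 0.03, with -0.10 for Rhbdf2 and -0.09 for Adam8, which had 777 and 740 CPM against 725 and 701 CPM.

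**Figure D5:**
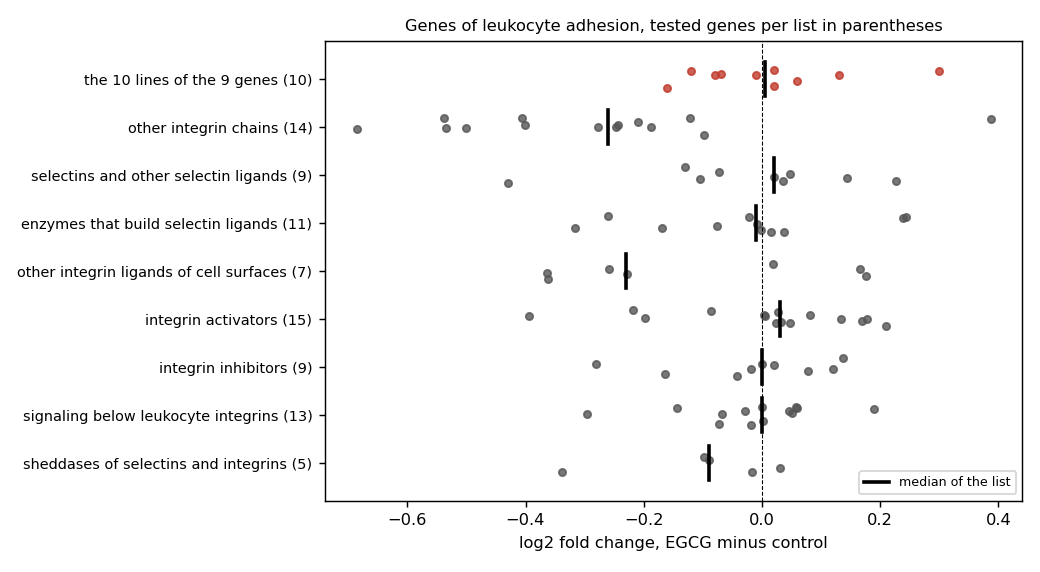
Log2 fold change of EGCG against control for the tested genes of each list (points) and the median of the list (black line), with the genes of the family in red. The other integrin chains have a median of -0.26, whereas the family has a median of 0.0048.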

How the data were processed

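RNA from MDSCs was sequenced in 2 control and 2 EGCG libraries. Per the submitters' processing notes and the study's methods, the authors aligned reads with STAR 2.6.0c to GRCm38, counted them with featureCounts 1.6.2 on Ensembl release 91 without using strand, and deposited raw counts per gene, with no normalization. Here, genes passing edgeR's filterByExpr (minimum count of 10) were scaled by TMM and compared by the legacy form of the quasi-likelihood test of edgeR 4.0.16 (groups from the labels, no covariate), with adjustment over all 14682 tested genes and a threshold of 0.05. The test was checked on simulated data with the same relative spread for every gene, which cannot show how it performs on the spread of these libraries. The 95% intervals of fold changes use the standard error and degrees of freedom of that test. TPM, exonic lengths, overlaps between genes and coding sequences came from GENCODE M21 (GRCm38), and coding sequences were aligned with Biopython 1.88. Named were the 9 genes and, of each list, called genes, the 2 with the smallest unadjusted p and the most abundant. The genes and lists were chosen with earlier results of these data known. Alternatives were other filters, scalings, tests (DESeq2 1.42.0), a replicate block, a length correction and each library left out.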

Additional observations from a re-analysis of the deposited data

How the results depend on the processing

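With 2 libraries per group, the intervals of the 9 genes allow changes between 0.776-fold and 1.23-fold. None of the 10 lines was called under any of 10 alternatives or with a library left out, and 6 of the 10 kept their direction throughout. The log2 fold change turned to 0.09 for Itga4 and 0.01 for Itgb1 with the length correction, and to -0.01 for Itgb2 and -0.02 for Itgb7 with library size only. Leaving out each library gave a range from -0.00074 to 0.05 for Itgb2, from -0.08 to 0.06 for Itgb1 and from -0.01 to 0.05 for Itgb7. For Itga4 the range was from -0.11 to -0.02, and for Itgal from -0.11 to -0.04. The cause was not tested.

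All 20 list genes named kept their direction throughout. The size of some moved with a library left out, as for Itga9 (from -0.75 to -0.34) and Adam8 (from -0.12 to -0.05). Of the other integrin chains, 1 (Itga1) was called with library size only, and 0 to 4 with a library left out: Itga1 without control replicate 1, Itga5 without control replicate 2, and Itga1, Itga9, Itgad and Itgb5 without EGCG replicate 2. Of the signaling genes, 1 (Cbl) was called with library size only and 1 by DESeq2. Over all tested genes, against 20 lower and 2 higher, there were 0 and 0 without a filter on low counts (1018 and 777 at an unadjusted p under 0.05 by edgeR), 135 and 16 with library size only, 9 and 2 with upper-quartile scaling, 49 and 14 with robust estimation, 49 and 15 by DESeq2, 3 and 2 after correcting for length, 25 and 6 in the newer form of edgeR's test, and 20 and 1 when at least 1 CPM in 2 libraries was asked for. With a library left out, where the lone library is assumed to vary like the other group, 72 to 235 were lower and 5 to 119 higher.

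The replicate numbers were not used as pairs, since the labels do not tie them to a mouse or day and the deviations of control replicate 1 and EGCG replicate 1 from their group means correlated at 0.0336 across genes. With a replicate block 24 genes were lower and 6 higher, and 0 of the 10 lines were called.

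The mean log2 ratio of chains depends on the length used. With the longest transcript it was -2.35 for Itgal to Itgb2, -1.91 for Itga4 to Itgb1, -0.68 for Itga4 to Itgb7, -3.72 for Itgb2l to Itgb2 and -1.22 for Itgb7 to Itgb1. With bases of a single gene, an alternative chosen after seeing the data, it was -0.46 for Itgam to Itgb2, -2.21 for Itga4 to Itgb1 and -1.03 for Itga4 to Itgb7. A fixed length cancels in the difference between the groups, whereas the trend of fold changes with length does not.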
